A study of Mus musculus with 12 samples.

Results

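SLM2 peaks were examined in 10 axon guidance genes, *Dcc*, *Unc5b*, *Unc5c*, *Unc5d*, *Slit3*, *Robo1*, *Robo2*, *Epha5*, *Epha6* and *Plxna4*. They were selected on the deposited peak calls, since each holds at least 1 SLM2 peak in whole brain, so the presence of such a peak and its enrichment are given as a description with no test. A peak was counted for a gene when its centre lay within the mm10 span of the gene on the same strand. By this rule the 10 genes held 17 of 2057 whole-brain peaks and 4 of 178 hippocampal peaks, and they are 10 of 467 genes with a whole-brain peak. SLM2 is a splicing regulator of neurons and is encoded by *Khdrbs3*. RNA bound to it was mapped by eCLIP, in which UV light cross-links protein to RNA, an antibody pulls down the complex, and the bound RNA is sequenced beside size-matched input RNA from the same lysate. The series has 12 libraries from mice aged 30 days, with 2 eCLIP and 2 input libraries each for wild-type whole brain, wild-type hippocampus and *Slm2* KO hippocampus. The knockout libraries were not analysed here. UV light was given to the tissue in all groups as 3 exposures of 400 mJ/cm2. A whole-brain lysate came from a single brain and a hippocampal lysate from pooled hippocampi, and both contain every cell type of the tissue. The 2 eCLIP libraries of a tissue are represented by 1 merged peak list, so none of the counts below has a spread between replicates. The lists hold peaks and no expression levels, so the tissue labels could not be checked against marker genes, and library depth was not analysed here.

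Growing axons are steered by secreted and membrane-bound cues that act through receptors on the growth cone. Netrin attracts through DCC and repels through UNC5 receptors, Slit proteins repel through Robo receptors, ephrins signal through Eph receptor tyrosine kinases, and semaphorins signal through plexins, often with neuropilins as partners. Many of these proteins persist after axons have reached their targets and act at synapses. SLM2 belongs to the STAR family of RNA-binding proteins, which recognise short A- and U-rich elements. The tetramer UWAA (W = U or A) is known as an element bound by SLM2 in vitro.

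The stretches close to the peak centres that carry the most of this element are shown first, since they are the sequences the peaks are read against. Other parts of the introns can hold more of it than the stretches shown. Each is the run of 30 nt with the most UWAA within 50 nt of the centre of the whole-brain peak that holds the most UWAA in its gene, 5′ to 3′ on the transcribed strand of GRCm38 (the same build as mm10), with every UWAA in capitals. Overlapping UWAA merge into longer capital runs. The peaks of *Dcc* are described by their counts alone.
Unc5c, chr3:141539807-141539836, plus strand: UUAAcauccugucUAAAauuaugucauuau
Unc5d, chr8:29137601-29137630, minus strand: uuacucccucUAAAccaguaguucucaacc
Slit3, chr11:35286656-35286685, plus strand: UUAAAaauaUUAAAUAAAaugucuguuggc
Robo1, chr16:72761271-72761300, plus strand: UUAAAcauUUAAUUAAAugUUAAAuaUUAA
Robo2, chr16:74340087-74340116, minus strand: UUAAAaauaugucuucaagcaacauUUAAA
Epha5, chr5:84271450-84271479, minus strand: auuuuuauugacUAAAaccaagccagUAAA
Epha6, chr16:60154268-60154297, minus strand: aaaaauuuuUUAAAgaggucaugaaUUAAA
Plxna4, chr6:32470819-32470848, minus strand: UUAAAagUUAAAaaUAAAuagccugaaacu
*Unc5b* has no UWAA within 50 nt of its peak centre, and the 30 nt around that centre are shown for contrast.
Unc5b, chr10:60815304-60815333, minus strand: gcgugggguuucuggggugcaggagcacag
The *Robo1* stretch has 8 UWAA starts, those of *Slit3* and *Plxna4* 5 each, and those of *Robo2* and *Epha6* 4 each, while *Unc5c* and *Epha5* have 2 and *Unc5d* 1. Much of this sequence is masked as a repeat. The masked share of the 30 nt is 100% in *Robo1*, 93.3% in *Epha6*, 80% in *Slit3* and 76.7% in *Plxna4*. It is 63.3% in *Unc5d*, 56.7% in *Robo2*, and 0% in *Unc5b*, *Unc5c* and *Epha5*.

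Every SLM2 peak of the 10 genes lay in an intron, most of them far from any exon. Of the 17 whole-brain peaks, 17 had their centre in an intron (100%, exact 95% binomial interval 80.5 to 100, which covers counting error only), against 96.3% of all whole-brain peaks. The median distance from the centre to the nearest exon of any transcript of the gene was 37.2 kb, compared with 24.8 kb over all whole-brain peaks. The means ran the other way, at 45.9 kb for the 17 peaks and 53.2 kb over all whole-brain peaks. The values over all whole-brain peaks include distances of 0 kb. The median of the 17 is the value of an *Epha5* peak, and the 4 peaks of this gene lie close together in the same intron. At 14 of the 17 peaks the distance to the nearest exon was over 10 kb (82.4%, 56.6 to 96.2), against 66.8% of all intronic whole-brain peaks. None lay within 500 nt of an exon, which allows a share of up to 19.5% (5.51% of all intronic whole-brain peaks). At no centre did GENCODE place another gene on either strand. These distances come from the annotation of all transcripts. With exons of protein-coding transcripts alone the median was again 37.2 kb and 17 centres were intronic. Those exons are a subset of all exons, so no intronic centre could become exonic by this change.

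**Figure D1:**
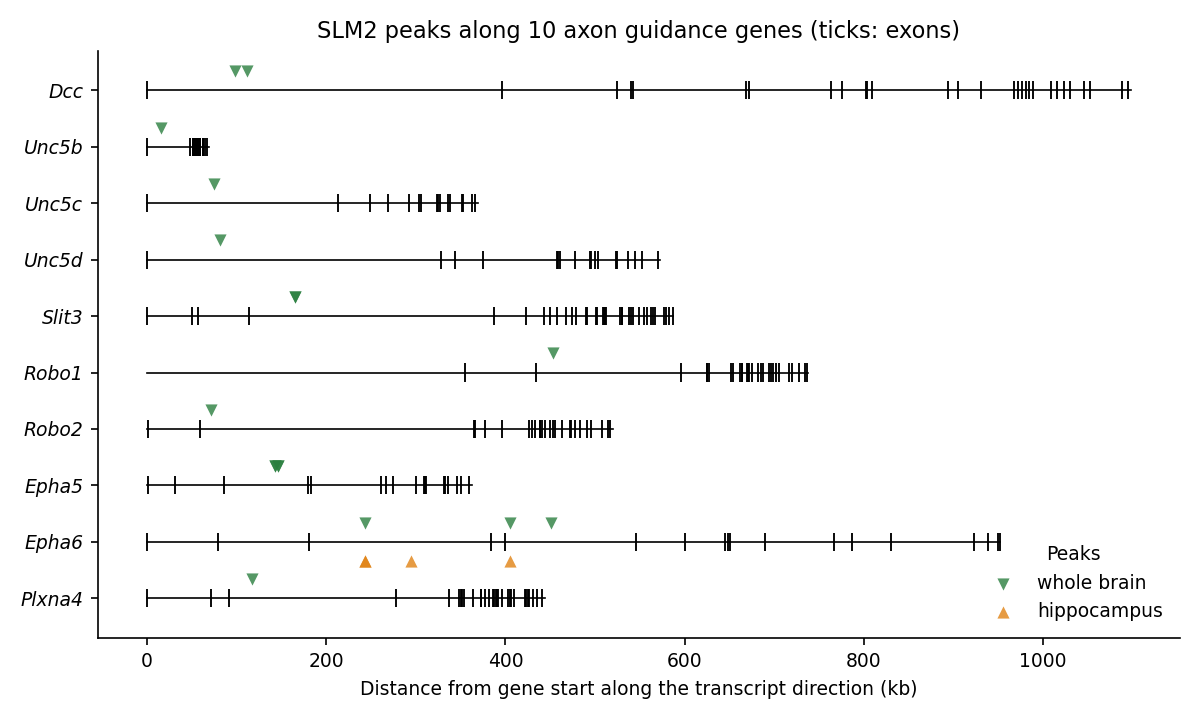
The 10 axon guidance genes drawn from gene start (0 kb) along the direction of transcription, with ticks at the exons of 1 reference transcript, whole-brain SLM2 peaks above (green) and hippocampal peaks below (orange). Peak centres lie in long introns at positions from 8.96% of the gene length in *Dcc* to 61.4% in *Robo1*, and the 4 hippocampal peaks all lie in *Epha6*. In *Robo1* the reference transcript starts 354.8 kb into the gene, after other annotated transcripts, and peaks closer than a marker width overlap.

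Intron numbers were the same among the 3 UNC5 genes and between *Robo1* and *Robo2*, and only in part between *Epha5* and *Epha6*. Introns were numbered in 1 reference transcript per gene (the principal APPRIS isoform with the longest coding sequence). That of *Robo1* starts 354.8 kb into the gene, after other annotated transcripts, so its intron number holds for this transcript only. *Dcc* and the 3 UNC5 genes had all 5 of their whole-brain peaks in intron 1, *Robo1* and *Robo2* each had theirs in intron 2, and *Epha5* (4 peaks), *Plxna4* (1) and the first peak of *Epha6* lay in intron 3. The other 2 whole-brain peaks of *Epha6* were in intron 5, and both of *Slit3* were in intron 4. Intron 1 thus held 5 of 17 peaks, a share of 29.4% (10.3 to 56.0), and over all intronic whole-brain peaks of protein-coding genes it held 34.9%. The introns that carry peaks are also long, as they are over the whole list. Their length had a median of 186.1 kb and a mean of 202.8 kb over the 17 peaks. Over all whole-brain peaks in an intron of the reference transcript these were 171.1 and 238.0 kb. Of the 17 peaks, 15 were in the longest intron of the reference transcript, the 2 in intron 5 of *Epha6* being the exceptions, and over all protein-coding genes this was 64% of the peaks. The longest intron makes up 21.4% (*Epha6*) to 69.3% (*Unc5b*) of the 10 genes. Whether intron number or intron length goes with the peaks was not tested.

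The 4 netrin receptor genes among the 10 were bound in their first intron, between 8.96% (*Dcc*) and 23.6% (*Unc5b*) of the gene length. *Dcc*, the attractive netrin receptor, spans 1097.4 kb of chromosome 18 and held 2 whole-brain peaks, 98.3 and 111.7 kb from the gene start in an intron of 395.3 kb. Their log2 fold changes of eCLIP over input were 2.32 and 2.58, and their −log10 p (eCLIP against input) were 3.20 and 3.70. *Unc5b*, a repulsive netrin receptor that also acts in blood vessels, held 1 peak (chr10:60815266-60815372) with a log2 fold change of 3.13 and a −log10 p of 3.81. This gene is the shortest of the 10, at 69.0 kb, and its peak was 4.93 kb from an exon of another transcript and 15.8 kb from the nearest exon of the reference transcript. *Unc5c* held 1 peak (chr3:141539803-141539879) with a log2 fold change of 2.71 and a −log10 p of 3.14, and *Unc5d* held 1 (chr8:29137573-29137660) with 2.31 and 3.67. Of these 5 peaks, that of *Unc5b* had the highest enrichment and the lowest A+U content (43.6% within 50 nt of the centre). The other 4 had an A+U content of 60.4% or more.

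In the Slit and Robo pathway 1 ligand gene and 2 receptor genes were bound. *Slit3*, which encodes a secreted repellent, held 2 whole-brain peaks 28 nt apart (chr11:35286656-35286742 and chr11:35286771-35286845). The upstream peak had a log2 fold change of 2.11 and a −log10 p of 2.90, and the downstream peak had 3.40 and 3.35. Their UWAA counts within 50 nt of the centre ran the other way, with 5 at the upstream and 1 at the downstream peak. *Robo1* held 1 peak (chr16:72761212-72761296) with a log2 fold change of 3.65, the highest of the 17 peaks and rank 117 of 2057, and a −log10 p of 3.03. *Robo2* held 1 peak (chr16:74339989-74340144) with 2.34 and 3.64. *Robo1* and *Robo2* encode the main Slit receptors of neurons. Their peaks lay 18.8 and 12.5 kb after the upstream exon, in introns of 162.2 and 305.6 kb.

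*Epha5* had 4 whole-brain peaks, in a narrow stretch of 1 intron. In a gene of 362.6 kb its 4 peaks lay between 142.7 and 146.0 kb from the gene start, as 2 pairs 2975 nt apart. In the upstream pair the peaks were 43 nt apart with log2 fold changes of 2.75 and 2.65, and in the downstream pair they were 1 nt apart with 2.60 and 2.76. The −log10 p were 4.34, 2.83, 5.35 and 3.59 in the 5′ to 3′ order, and the third of these (chr5:84271388-84271553) was the highest of the 17 peaks. With peaks of a gene joined when they were within 100 nt of each other, which was chosen after their positions were seen, the 17 whole-brain peaks made 14 sites, with 3 in *Epha6*, 2 each in *Epha5* and *Dcc*, and 1 in each of the other genes. EPHA5 is a receptor for ephrin-A ligands, with known roles in topographic mapping.
The downstream pair follows a run of UWAA. From −129 to −92 nt of the centre of the third peak, whose 5′ end is at −82.5 nt, 10 UWAA start at most 5 nt apart. Its first 30 nt, chr5:84271570-84271599 on the minus strand, are shown because this run was the longest within 250 nt of the 21 peak centres. The fourth peak has 8 of the same UWAA in its range, and at the other peaks no run was longer than 4.
Epha5 run: UAAAUAAAUAAAUAAAUAAAUAAAUAAAua
All of these 30 bases are masked as a repeat. Within 51 to 250 nt before the centre of this peak 22 UWAA start, against 3 in the same range after it. The UWAA density within 50 nt of this centre does not count the run, and was 4.08 there and 12.2 per 100 positions when the window was placed on the 5′ end of the peak.

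*Epha6* was the only one of the 10 genes with SLM2 peaks in both tissues. It spans 952.0 kb and held 3 whole-brain and 4 hippocampal peaks, and 9 of the 10 genes are over 300 kb. A hippocampal peak was held by 0.378% of all protein-coding genes and by 8.11% of those over 300 kb. Both shares include genes without a whole-brain peak, whereas the 10 genes were chosen for holding such a peak. The share among genes with a whole-brain peak was not counted. The whole-brain peaks had log2 fold changes of 2.63, 2.46 and 3.54 in the 5′ to 3′ order and −log10 p of 3.15, 3.33 and 3.91. The hippocampal peaks had log2 fold changes of 2.80, 2.06, 2.48 and 2.99 and −log10 p of 1.70, 0.748, 1.75 and 2.08. A −log10 p of at least 2 was reached by the last of these (1 of 4) and by 46.6% of all hippocampal peaks, and 3 of the 4 had a −log10 IDR of 3.08 to 3.30, where 57.9% of all hippocampal peaks reached 3. IDR is the irreproducible discovery rate of the 2 replicates.
One site was shared. The second whole-brain peak (chr16:60200802-60200878) lay wholly within the fourth hippocampal peak (chr16:60200741-60200878), and both have the same 5′ end. Thus 1 of 4 hippocampal peaks overlapped a whole-brain peak (25.0%, 0.631 to 80.6), against 30.9% of all hippocampal peaks. The stretch with the most UWAA around the shared whole-brain centre, chr16:60200856-60200885 on the minus strand, has 80% of its bases masked as a repeat and reads as follows.
Epha6 shared site: UAAAcuuauuuUUAAAaaggucuuccUAAA
A second region came close without overlap. The first 2 hippocampal peaks, 101 nt apart, lay 638 and 873 nt from the first whole-brain peak, all in intron 3. The first hippocampal peak had 9 UWAA within 50 nt of its centre, a number that 4 of the 178 hippocampal peaks exceeded. Its densest stretch is chr16:60361837-60361866 on the minus strand, with 70% of its bases masked as a repeat.
Epha6 hippocampal: UUAAAcacauauaaUAAAaacugUAAAaua
EPHA6 is an ephrin-A receptor like EPHA5. The other 9 genes had no hippocampal peak. More of these transcripts in whole brain, more SLM2 bound per transcript and deeper libraries cannot be told apart in these lists, nor can fewer cells of a type and less RNA per cell.

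*Plxna4*, which encodes a plexin that receives class 3 semaphorins with neuropilins, held 1 peak (chr6:32470754-32470844) with a log2 fold change of 3.32 and a −log10 p of 4.43. The peak lay 25.9 kb after exon 3 in an intron of 186.1 kb. It had 7 UWAA within 50 nt of the centre and 0 in its flanks, the widest contrast after *Robo1* among the 17 peaks.

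By the authors' statistics the 17 whole-brain peaks had a median fold change close to that of the whole list and lower medians of −log10 p and −log10 IDR. Their log2 fold change was 2.11 to 3.65 with a median of 2.65, and over all whole-brain peaks the median was 2.56. At least 3 was reached by 5 peaks, 1 each in *Unc5b*, *Slit3*, *Robo1*, *Epha6* and *Plxna4* (29.4%; 22.6% of all). Their median −log10 p of 3.59 was below the 4.32 of the whole list, and their median −log10 IDR was 2.28 against 2.42. No member peak reached a −log10 IDR of 3, a level that 16.4% of all whole-brain peaks passed, and 14 of 17 were under 2.5, as were 55.3% of all. The lists were kept at 2 for both measures, and just inside were a peak of *Slit3* at a log2 fold change of 2.11, and, by −log10 IDR, a peak of *Epha5* at 2.00, one of *Slit3* at 2.01 and that of *Robo1* at 2.03. The gene with the highest fold change of the 10, *Robo1*, was therefore among those closest to the threshold of reproducibility. Peaks just outside it are not part of the lists. None of the 17 peaks shared 10 nt or more with the sequencing adaptor (0.972% of all whole-brain peaks did).

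**Figure D2:**
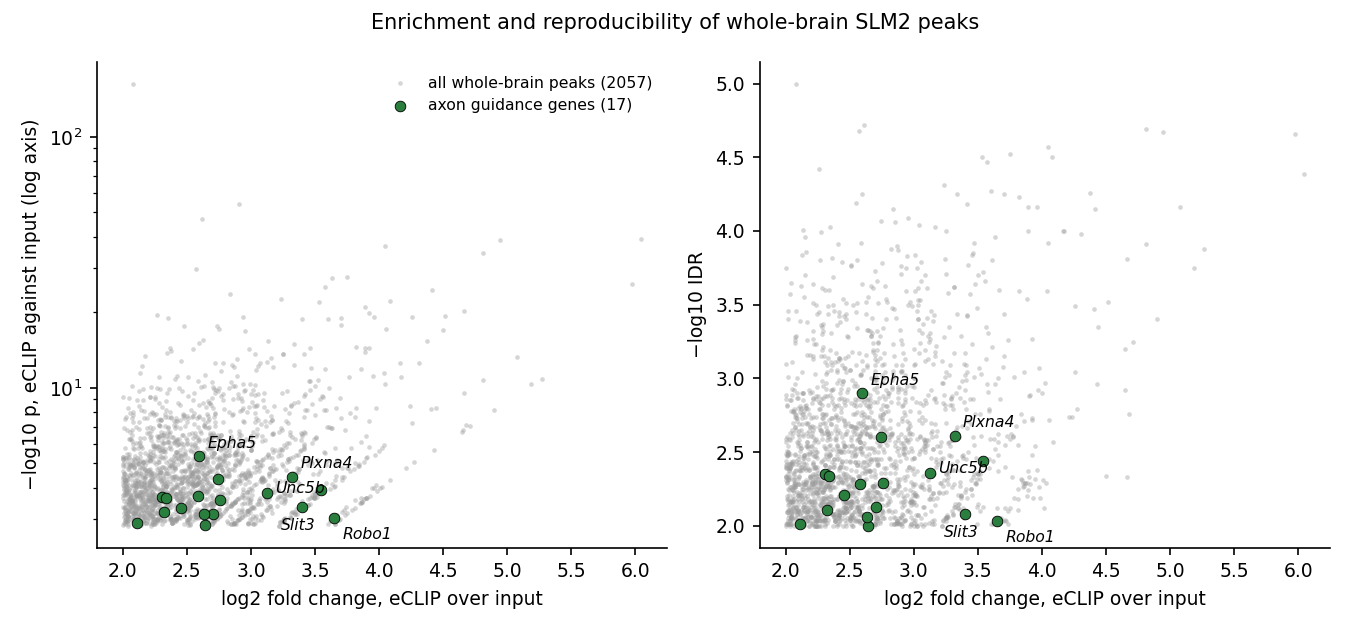
Each point is a whole-brain SLM2 peak, with the log2 fold change of eCLIP over input on the horizontal axis and −log10 p (left, log axis) or −log10 IDR (right) on the vertical axis. The 17 peaks of the axon guidance genes (green) have −log10 IDR from 2.00 to 2.90, of which 4 are above the median of 2.42 over the 2057 peaks (grey), and *Robo1* combines the highest log2 fold change of the 17 (3.65) with a −log10 IDR of 2.03.

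UWAA was denser at the peaks than beside them in 9 of the 10 genes. The density is the number of UWAA starts per 100 positions, counted within 50 nt of a centre and again in 2 flanks (450 to 550 nt to either side), and it was not used to choose the genes. The mean of the 10 gene means was 5.29 at peaks, flanks had 1.52, and the difference was 3.77 (SD over genes 4.36, n = 10). Over all 434 genes with a whole-brain peak (each peak given to 1 gene) the values were 3.35 and 1.57, a difference of 1.78, and 69.6% of these genes had more at peaks. The exception among the 10 was *Unc5b*, with 0 at its peak and 0 in its flanks.
*Robo1* had the highest density, 17.3 at its peak and 3.06 in its flanks. Its 17 UWAA starts were more than at any other of the 2057 whole-brain peaks. *Robo2* had 7.14 and 1.53, *Plxna4* 7.14 and 0, *Epha6* 5.44 and 2.21 over 3 peaks, and *Dcc* 5.10 and 2.55 over 2 peaks. Lower values were found in *Slit3*, at 3.06 and 0.255, and *Unc5c*, at 3.06 and 2.55. They were also lower in *Epha5*, at 2.55 and 2.04, and *Unc5d*, at 2.04 and 1.02. Without *Robo1* the mean difference over the other 9 genes was 2.60.

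**Figure D3:**
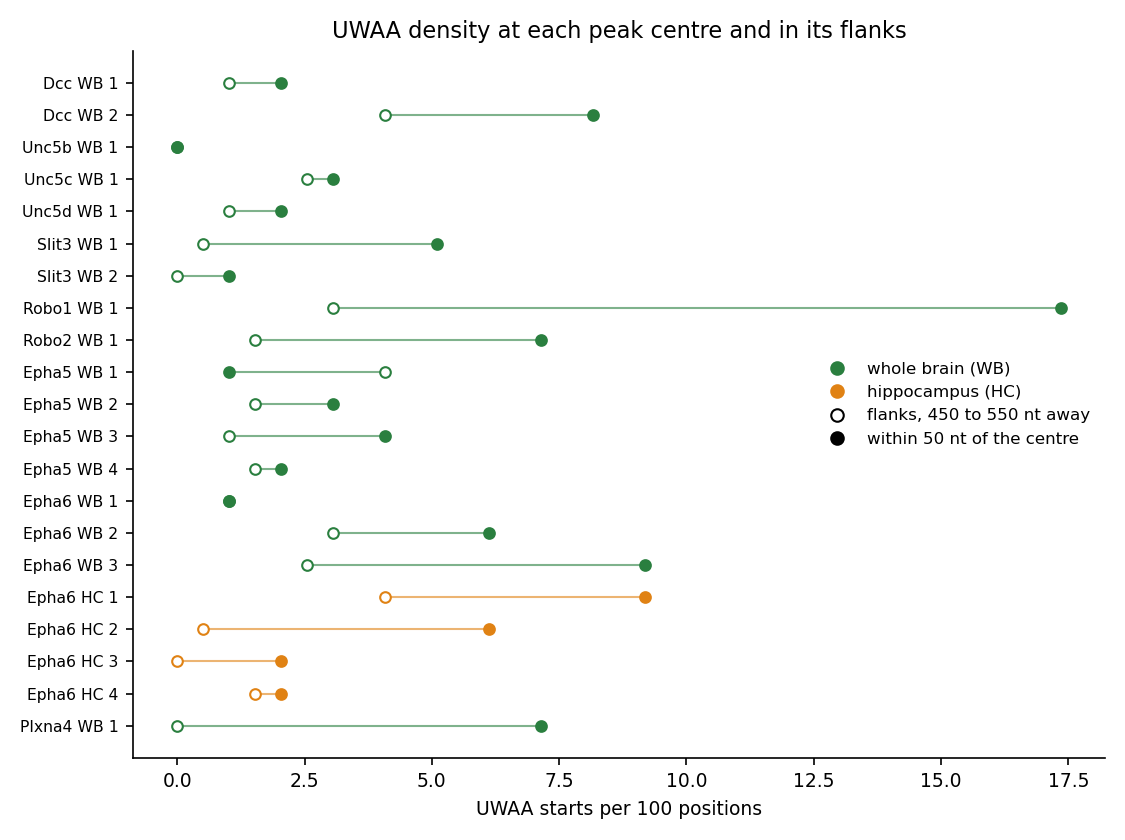
UWAA starts per 100 positions within 50 nt of each peak centre (filled) and in its flanks (open, 450 to 550 nt to either side), for the 17 whole-brain (green, WB) and 4 hippocampal (orange, HC) peaks, numbered 5′ to 3′ within a gene. The filled point is to the right of the open one at 14 whole-brain and 4 hippocampal peaks, coincides with it in *Unc5b* and at the first whole-brain peak of *Epha6*, and is to its left at the first peak of *Epha5* (1.02 and 4.08).

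By single peaks, 14 of 17 in whole brain had more UWAA at the centre than in the flanks (82.4%, 56.6 to 96.2; 66.5% of all whole-brain peaks), and 16 of 17 had at least 1 within 50 nt (94.1%, 71.3 to 99.9; 83.6% of all). In hippocampus both held at 4 of the 4 *Epha6* peaks (100%, 39.8 to 100). Over all hippocampal peaks 46.1% had more at the centre and 67.4% had at least 1 within 50 nt. The mean density was 4.85 at the 4 peaks and 1.53 in their flanks, against 2.55 and 1.67 over all hippocampal peaks. The 7-mer UUWAAAA lay within 50 nt of the centre at 7 of 17 whole-brain peaks (41.2%, 18.4 to 67.1; 18.9% of all), in *Dcc*, *Slit3*, *Robo2*, *Epha5*, *Plxna4* and at 2 peaks of *Epha6*. In at least 1 of the 2 flanks, each as wide as the centre window, it lay at 2 of the 17 (16.1% of all). The flank share thus covers more sequence than the centre share, and the 2 are not directly comparable. Within 50 nt of the centre it was at 0 of the 4 hippocampal peaks (10.1% of all hippocampal peaks). These intervals include or come close to the shares over all peaks, peaks of 1 gene are not independent, and no test was made.
Base content at the peaks was close to that of the whole list. The share of A and U was higher at the centre than in the flanks at 12 of 17 whole-brain peaks (70.6%, 44.0 to 89.7; 61.4% of all whole-brain peaks). The medians were 63.4% at centres and 61.9% in flanks, against 66.3% and 62.4% over all whole-brain peaks. At the peaks of *Unc5c* and *Unc5d*, the downstream peak of *Slit3* and the second whole-brain peak of *Epha6*, UWAA was denser and the A+U share lower than in the flanks. Beside the density that the base shares of each window alone would give, the observed one was higher at 13 of 17 peaks (76.5%, 50.1 to 93.2; 66.5% of all). In *Robo1* it was 17.3 against 6.60, in *Plxna4* 7.14 against 2.64 and in *Unc5b* 0 against 0.429. GGWGG, searched because the *Unc5b* peak lacks UWAA, was present once in *Unc5b*, at both peaks of *Slit3* and at the first peak of *Epha5*, or 4 of 17 peaks (22.9% of all whole-brain peaks). This search was made after the sequences were seen.

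**Figure D4:**
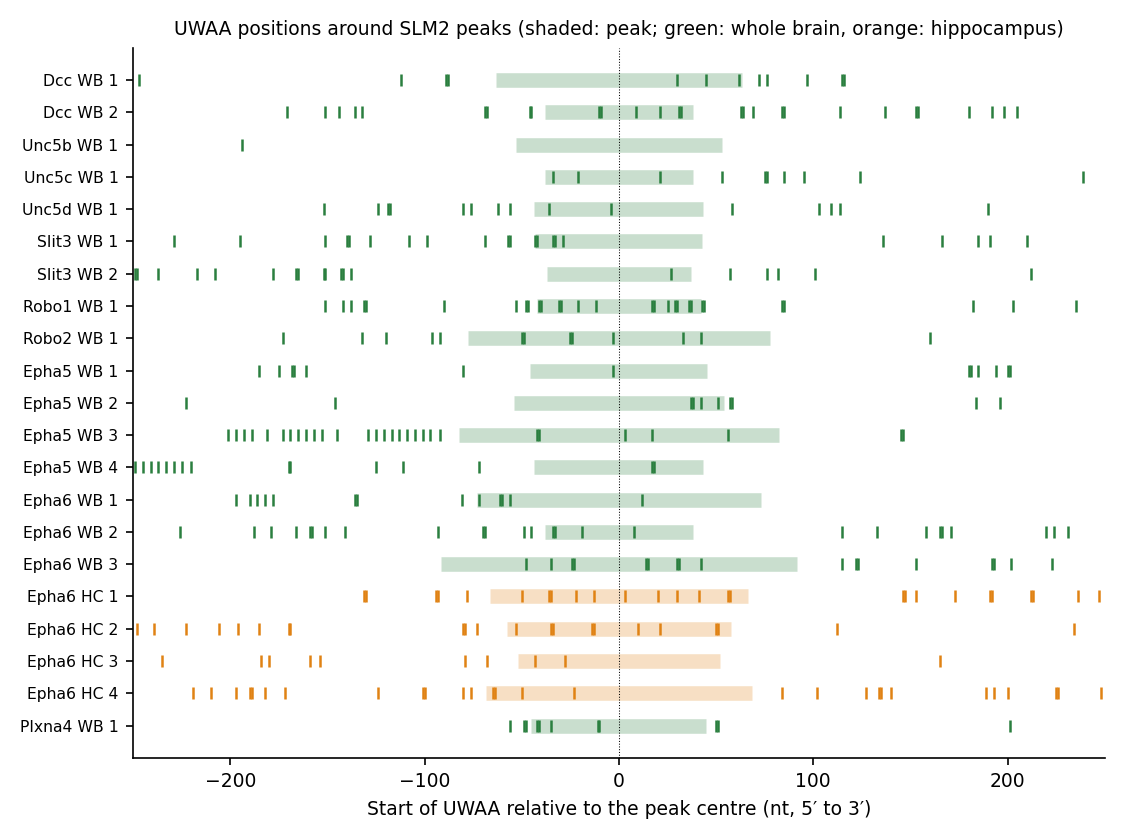
Start of each UWAA (ticks) within 250 nt of the centre of the 21 peaks, 5′ to 3′, with the extent of the peak shaded (green whole brain, orange hippocampus; numbered 5′ to 3′ within a gene). *Robo1* has 17 starts within 50 nt of the centre, *Unc5b* has none in that range, and the run of 10 before the third peak of *Epha5* ends before the peak begins.

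Around the peaks UWAA was more often denser on the 5′ side, as it was over the whole list. From 51 to 250 nt before the centre 7.24 UWAA started on average over the 17 whole-brain peaks, against 4.71 in the same range after it, and the 5′ side had more at 10 peaks and fewer at 6. Over all whole-brain peaks the means were 5.13 and 4.38, with more on the 5′ side at 49.8% of peaks and fewer at 37.5%. The members' mean rests in part on the *Epha5* run, which is counted before both peaks of the downstream pair (22 and 13 starts). The 2 neighbouring peaks of *Slit3* (11 and 13 starts before the centre) also count some of the same UWAA. Both pairs are among the 10 peaks with more on the 5′ side, so these 10 are not all separate sites.
Repeat sequence was common in the windows. Over 20% of the bases within 50 nt of the centre were repeat-masked at 9 of the 17 peaks (52.9%, 27.8 to 77.0; 50.9% of all whole-brain peaks), among them those of *Robo1* (51.5%), *Plxna4* (48.5%) and *Unc5d* (58.4%). With these windows left out, 7 genes and 8 peaks remained, UWAA was denser at peaks in 5 of the 7, and the mean difference was 1.42. Over all genes with such a window 59.9% had more at peaks. The part of the repeats in the UWAA excess was not tested.

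The other genes of the guidance pathways were mostly without a peak. A list of 102 genes was drawn from whole families of netrin, Slit, ephrin and semaphorin ligands, their receptors and intracellular partners. Of these, 12 held a whole-brain peak, the 10 above, which were chosen for it, and 2 more listed with the netrin receptors. Without the 10, a peak was held by 2 of 92 genes (2.17%), close to the 1.92% of all protein-coding genes. By role, 11 of 37 receptor genes, 1 of 40 ligand genes and 0 of 25 genes of intracellular partners had a peak. Without the 10 these were 2 of 28 receptors, 0 of 39 ligands and 0 of 25 partners, so the counts by role rest mostly on the chosen genes. Median gene length was 144.8 kb for receptors, 36.0 kb for ligands and 123.8 kb for intracellular partners.
Most bound genes were long, with a median length of 546.5 kb against 62.1 kb for the other 90, and *Unc5b* was the exception. Among genes over 50 kb, 11 of 22 receptors, 1 of 17 ligands and 0 of 22 intracellular partners had a peak. Without the 10 chosen genes it was 2 of 51 (3.92%; 7.35% of all protein-coding genes over 50 kb). Over 300 kb these numbers were 10 of 12 receptors and 1 of 6 ligands, and no intracellular partner is that long. Without the 10 it was 2 of 9 (22.2%; 31% of all protein-coding genes over 300 kb). Genes of that length without a peak included *Epha3* (320.6 kb) and *Slit2* (324.6 kb), and also *Ephb1* (432.6 kb), an Eph receptor gene named here after its values were seen. *Robo3*, *Robo4*, *Unc5a*, *Neo1*, *Slit1*, *Plxna1*, *Plxna2* and *Plxna3* had none, and neither had the ephrins, semaphorins and netrins as whole families.
*Dscam* and *Dscaml1*, which encode adhesion receptors of the immunoglobulin superfamily (DSCAM also binds netrin), were the other 2 bound genes. *Dscam* held 2 whole-brain peaks with log2 fold changes of 3.57 and 2.46, each with 8 UWAA within 50 nt of the centre and 0 in the flanks. *Dscaml1* held 1 peak, at a log2 fold change of 3.50, with 2 UWAA and 0. The 3 peaks were intronic like those of the 10 genes. They lay in introns 3 and 1 of *Dscam* and in intron 3 of *Dscaml1*, so not all peaks of the listed netrin receptors were in the first intron.

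**Figure D5:**
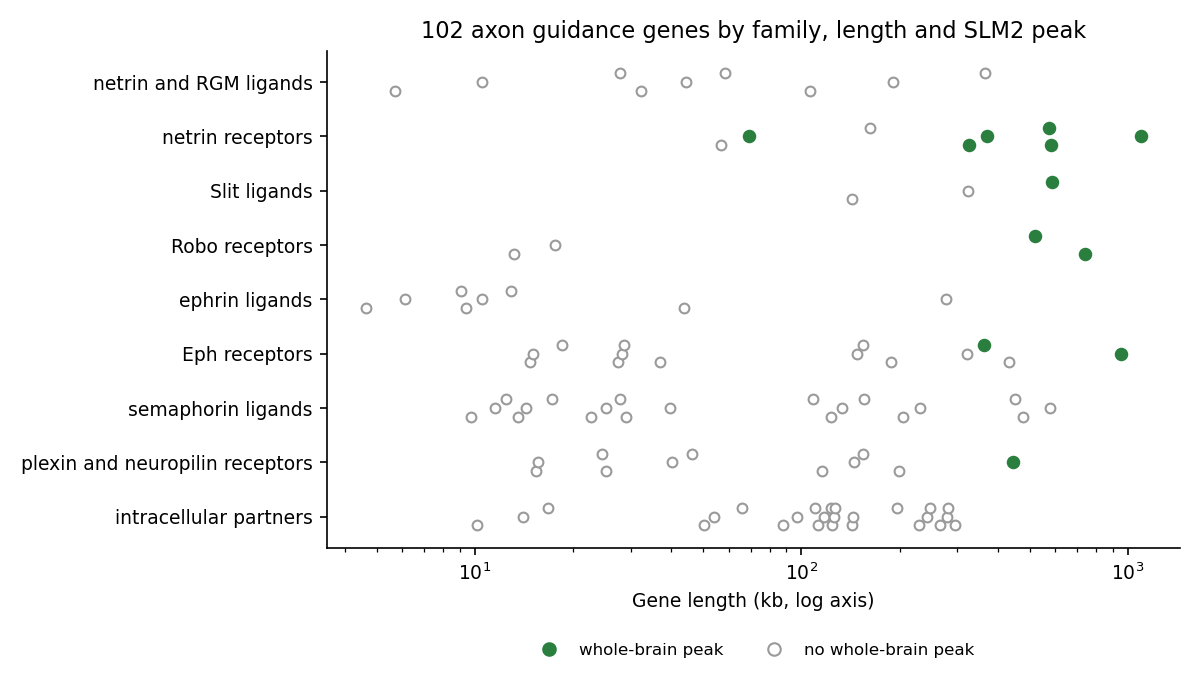
Each point is 1 of 102 axon guidance genes, placed by family (vertical) and gene length in kb (horizontal, log axis; points are spread vertically within a family for legibility). Genes with a whole-brain SLM2 peak (green, 12 genes) are longer than 300 kb apart from *Unc5b* (69.0 kb) and are receptor genes apart from *Slit3*, and the other 90 genes (open) had none.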

How the data were processed

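SLM2 eCLIP and size-matched input libraries of wild-type whole brain and hippocampus were analysed through the 2 merged peak lists, and samples were grouped by their titles. Per the submitters' processing notes and the methods, the authors used cutadapt 3.4, STAR 2.7.9 (mm10) and UMI-tools 1.1.1, called peaks with CLIPper and merged the 2 replicates by IDR. The deposited values are a log2 fold change of eCLIP over input, a −log10 p-value and a reproducibility score, the −log10 IDR, per peak, and lists were kept at 2 for the first and last. The lists carry no column names, which were taken from the study's peak sheet and from the value ranges. Replicates can be compared only through the IDR, and depth was not analysed here.

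Peaks were placed by their centre on GENCODE vM21 (55450 genes, 21951 protein-coding) and sequence was read from GRCm38, in which all 10 coding sequences began with a start codon. Counts over all genes let a peak count for every gene that holds it, and means over genes give it to 1 gene (protein-coding first, then the longest). Intervals are exact (Clopper-Pearson). The genes and lists were chosen with earlier results of these data known. Named were the 10 genes, other list genes with a peak, and unbound paralogs. Alternatives were stricter thresholds, other windows, flanks, motifs, overlap rules and exon sets, and peaks left out for adaptor or masked sequence. Motif and annotation procedures were tested on simulated sequence. Python 3.11.15, numpy 2.4.6, pandas 2.3.3, scipy 1.17.1, pysam 0.24.0, matplotlib 3.10.9 and samtools 1.23.1 were used.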

Additional observations from a re-analysis of the deposited data

How the results depend on the processing

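The counts rest on peaks near the thresholds. With log2 fold changes of 3 or more, 5 whole-brain peaks in 5 genes were left and no hippocampal peak (0 of 4). At a −log10 IDR of at least 3 there were 0 peaks in 0 genes, and at 2.5, a level chosen after seeing the data, 3 peaks in 2 genes. With a −log10 p of at least 2, 1 hippocampal peak was left. The mean UWAA difference of 3.77 was 2.34 with windows of 25 nt, 1.42 without windows over 20% masked (5 genes higher of 7), 1.52 for UAAA, 2.24 for UUAA and 0.557 for UUWAAAA, and stayed positive under every alternative run. UAAA and UUAA are each part of UWAA and UUWAAAA is longer, so they are rarer by construction. For the guidance list, 5 genes had at least 2 whole-brain peaks (0.843% of all protein-coding genes did) and 7 had one of log2 fold change at least 3 (0.989%). Its share of genes with a peak, 11.8%, was 19.7% over 50 kb and 61.1% over 300 kb, and these counts include the 10 genes chosen for a peak. Overlap rules, exon sets, joined peaks, the other windows and flanks moved no value by over 1.5 times, the limit used since this mean has no replicate spread. Of these, the smaller exon set could not have made an intronic centre exonic. Leaving out peaks with adaptor removed no peak of the 10 genes, so it could change no value. The joining of peaks, the genes over 300 kb, GGWGG, the counts before and after the centre and the values without *Robo1* were also chosen after seeing the data. No paired analysis was possible because each tissue has 1 merged list and no value per replicate, and for the same reason no replicate could be left out.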
